A study of Pardosa pseudoannulata with 6 samples.

Results

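The ecdysone receptor, ultraspiracle and juvenile hormone acid methyltransferase-3, genes of the hormone system that times moulting, were followed in the wolf spider Pardosa pseudoannulata. They are 3 of 75542 assembled genes and were chosen by gene identifier in the deposited table. The ecdysone receptor (Cluster-8110.35819, 7623 bases) had an ecdysone receptor of the spider Araneus ventricosus as its best protein hit, and a Pardosa pseudoannulata ecdysone receptor mRNA as its best nucleotide hit. Ultraspiracle (Cluster-8110.35111, 7008 bases) had the Pardosa pseudoannulata ultraspiracle/retinoid x receptor-2 as its best hit in both searches. Juvenile hormone acid methyltransferase-3 (Cluster-8110.40186, 826 bases) likewise had the enzyme of that name from the same species. The ecdysone receptor and ultraspiracle clusters also carried the C4 zinc finger, the DNA-binding domain of nuclear receptors. The genes are assembled clusters without genome coordinates, so no positions are given.

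Moulting in arthropods is set by a steroid, 20-hydroxyecdysone, which acts through a receptor made of a pair of nuclear receptors, the ecdysone receptor and ultraspiracle, the arthropod relative of the vertebrate retinoid X receptor. The bound pair switches on a short cascade of transcription factors, known best from Drosophila, and that cascade times the making of new cuticle. In insects a sesquiterpenoid, juvenile hormone, decides what kind of moult follows, and juvenile hormone acid methyltransferase adds the methyl group that completes its synthesis. In ticks, which like spiders are arachnids, ecdysteroids also drive yolk protein synthesis. What juvenile hormone acid methyltransferase makes in spiders is not settled.

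The 6 RNA sequencing libraries came from material labelled as an individual, all of it treated with cadmium and injected with double-stranded RNA, the trigger of RNA interference. The titles put 3 libraries in dsNC, taken as the control though NC is not spelled out, and 3 in dsFactin, where the F-actin gene was the target. The study asked how that gene bears on the response to cadmium. Strain, sex, age and moulting stage are not in the labels, nor is the number of animals behind a library, and each p-value thus reflects spread among libraries that may be technical. In bulk samples, fewer cells of a type and less RNA per cell cannot be told apart. Values are FPKM, fragments scaled to gene length and library total.

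The labels do not say which actin was targeted. The most abundant, a cytoplasmic A3a-like actin (Cluster-8110.34823), was lower in every dsFactin library (5273 ± 764 and 2482 ± 672 FPKM, SD, n = 3, adjusted p = 0.0911, limma), as was Actin-87E (Cluster-8110.35523, adjusted p = 0.0675), while Cluster-8110.34975 was not (1733 ± 61.0 and 1932 ± 153 FPKM). Recovered depth was 15.7 to 17.6 M fragments (M, 1e6) in dsNC and 16.2 to 17.9 M in dsFactin. Genes above 0 FPKM numbered 57714 to 61503 in dsNC and 47167 to 55781 in dsFactin, without overlap. Library scaling factors from median ratios did not overlap either, at 1.01 to 1.25 in dsNC and 0.838 to 0.961 in dsFactin. The dsFactin replicate 3 was the lowest on both measures. The dsFactin replicate 2 correlated with the other dsFactin libraries at r = 0.83 and 0.86 across tested genes on the log2 scale, while replicates 1 and 3 correlated at 0.92. Its correlation with the dsNC libraries was 0.85 to 0.88. Genes whose best hit is from Drosophila summed to 745, 2390 and 13922 FPKM in dsNC replicates 1 to 3. In dsFactin they summed to 221 to 444 FPKM, so the groups did not overlap. Sums over muscle, haemocyanin and yolk genes, which mark organs, did not overlap between groups either, while silk gland and venom gland sums did overlap. Summed silk gland FPKM was 17495 to 21148 in dsNC and 18091 to 25882 in dsFactin. For the venom gland it was 12509 to 17515 in dsNC and 16127 to 20766 in dsFactin. Summed muscle FPKM was 8732 to 10488 in dsNC and 4344 to 5461 in dsFactin, with 3 of 62 tested muscle genes called lower, beside 0.419% of all tested genes, and 2 of the 74 listed at 0 in every dsNC library and 12 in every dsFactin library. Summed haemocyanin FPKM was 71798 to 88725 in dsNC and 43746 to 53998 in dsFactin, with 0 of 43 past the threshold in limma, 26 lower at an unadjusted p under 0.05, beside 14.8% of all tested genes, and none listed at 0 in a whole group. Summed yolk FPKM was 9867 to 14069 in dsNC and 14398 to 25751 in dsFactin, over all genes whose best hit names vitellogenin, vitellogenin receptors included. The part of these shifts in the results below was not tested.

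The ecdysone receptor was at 29.8, 34.3 and 32.3 FPKM in dsNC replicates 1 to 3 and at 16.6, 20.3 and 13.9 FPKM in dsFactin replicates 1 to 3. The groups did not overlap, with dsFactin the lower. Group means were 32.1 ± 2.28 FPKM and 16.9 ± 3.19 FPKM (SD, n = 3), a log2 difference of -0.90 ± 0.16 (SE, 95% interval -1.30 to -0.50). That difference did not pass the threshold of 0.05 over all genes (adjusted p = 0.0742, limma). It did pass when only genes averaging 5 FPKM or more were fitted (adjusted p = 0.0413), with array weights (adjusted p = 0.0494) and without dsFactin replicate 2 (log2 -1.03, adjusted p = 0.0424).

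Ultraspiracle was the least abundant of the 3, at 6.58, 8.33 and 5.41 FPKM in dsNC, against 3.06, 3.38 and 2.11 FPKM in dsFactin. Here too the dsFactin libraries all lay below the dsNC libraries. Means were 6.77 ± 1.47 and 2.85 ± 0.661 FPKM (SD, n = 3), a log2 difference of -1.01 ± 0.23 (SE, 95% interval -1.56 to -0.46, adjusted p = 0.0973, limma). Within dsFactin, both receptor genes were highest in replicate 2 and lowest in replicate 3.

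Juvenile hormone acid methyltransferase-3 went the other way. Its level was 43.8, 38.3 and 48.4 FPKM in dsNC, against 57.5, 68.1 and 67.9 FPKM in dsFactin, so that dsFactin was the higher, again without overlap. Means were 43.5 ± 5.08 and 64.5 ± 6.09 FPKM (SD, n = 3), a log2 difference of 0.56 ± 0.14 (SE, 95% interval 0.23 to 0.89, adjusted p = 0.112, limma). In all 6 libraries the enzyme was at the highest level per length, the ecdysone receptor next and ultraspiracle lowest.

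**Figure D1:**
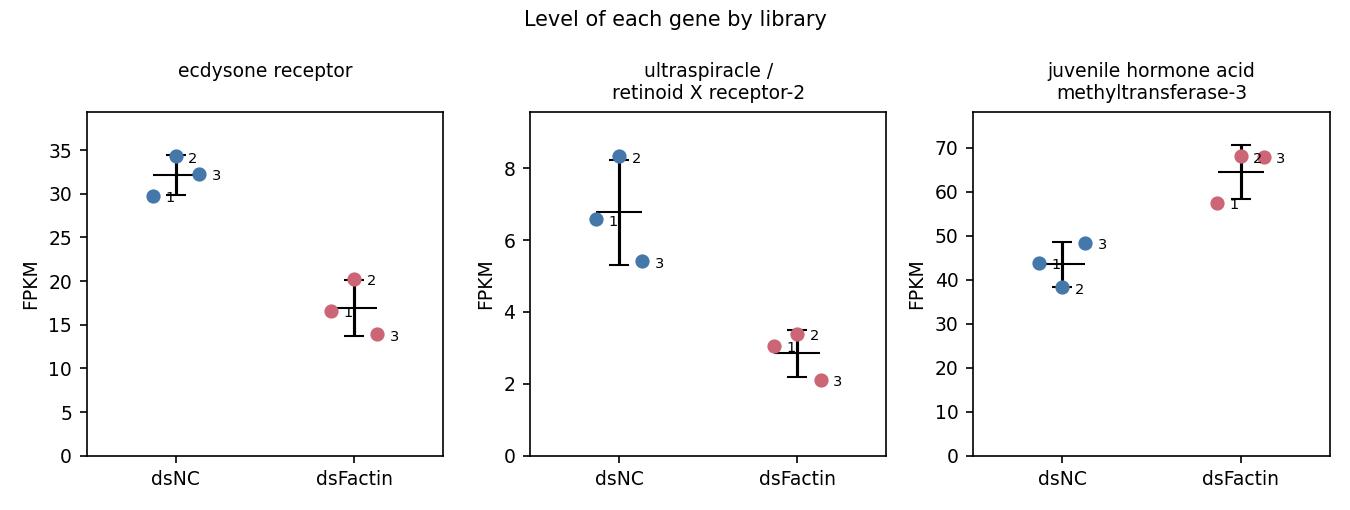
Level of the 3 genes in FPKM (vertical axes, each from 0), with 1 point per library numbered by replicate, blue for dsNC and red for dsFactin; bars are the mean ± SD of 3 libraries. The groups do not overlap in any panel: the ecdysone receptor and ultraspiracle are lower in dsFactin and the methyltransferase is higher.

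Thus 0 of the 3 genes passed over all genes in limma, and all 3 had an unadjusted p under 0.05 (0.00127, 0.00370 and 0.00599). Over the 53182 genes tested, 0.419% were called lower and 0.0771% higher, and an unadjusted p under 0.05 was reached by 14.8% as lower and 4.53% as higher. The groups did not overlap, with dsFactin the lower, in 21.5% of tested genes, and with dsFactin the higher in 5.98%. A negative log2 difference was found in 71.6%, and the median difference of all tested genes was -0.27. Relative to that median, the ecdysone receptor stood at -0.63, ultraspiracle at -0.74 and the methyltransferase at 0.83. Rescaling the libraries by median ratios moved the median of all genes to -0.09, and gave -0.59 for the ecdysone receptor and 0.88 for the methyltransferase. Behind these values stood 1644 to 4169 estimated fragments per library for the ecdysone receptor, 228 to 913 for ultraspiracle and 324 to 589 for the methyltransferase. Exact 95% Poisson intervals of the lowest dsNC and highest dsFactin library were 28.8 to 30.8 and 19.5 to 21.1 FPKM for the ecdysone receptor, and 4.995 to 5.84 and 3.05 to 3.74 FPKM for ultraspiracle. For the methyltransferase the highest dsNC and lowest dsFactin intervals were 44.1 to 53.1 and 52.8 to 62.4 FPKM, which overlap. These intervals cover counting error only.

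Both receptor genes are long, and the share of genes wholly lower in dsFactin was higher in longer classes. Of tested genes under 1000 bases, 14.8% lay wholly below dsNC, against 33.4% from 2000 to 4000 bases and 59.6% of the 1087 genes of 6000 bases and over. Wholly higher genes had no such order, at 4.33% under 1000 bases, 9.09% from 1000 to 2000, 8.30% from 2000 to 4000, 4.84% from 4000 to 6000 and 2.67% above. The median log2 difference was -0.28, -0.23, -0.25, -0.31 and -0.38 in the same order. Within the longest class, 5.61% of genes had a lower log2 difference than the ecdysone receptor and 3.13% a lower one than ultraspiracle. Among genes of that class averaging 5 FPKM or more, the shares were 8.41% and 5.84%. The short methyltransferase stood above 91.1% of genes under 1000 bases, and above 87.0% of those averaging 5 FPKM or more. The part of gene length in the receptor values was not tested.

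**Figure D2:**
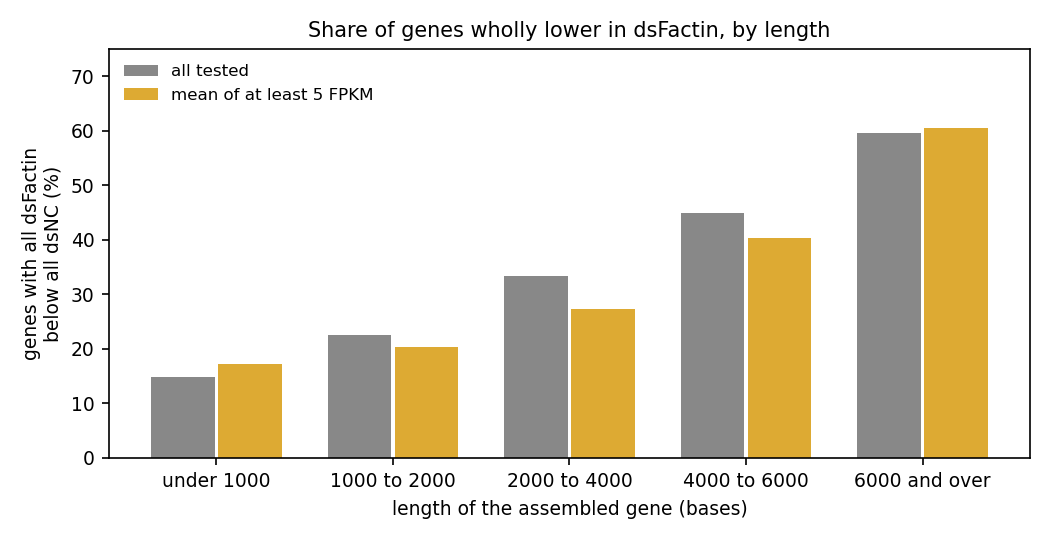
Share of tested genes (%) in which all 3 dsFactin libraries lie below all 3 dsNC libraries, by length of the assembled gene in bases, for all tested genes (grey) and for genes averaging 5 FPKM or more (yellow). The share climbs from 14.8% under 1000 bases to 59.6% at 6000 bases and over, the class that holds both receptor genes.

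The receptor works as a pair, so the levels of its subunits were set against each other. The ratio of ecdysone receptor to ultraspiracle FPKM was 4.52, 4.12 and 5.97 in dsNC and 5.42, 5.99 and 6.59 in dsFactin. The groups overlapped, with a log2 difference in the ratio of 0.32 (exact permutation p = 0.2, two-sided, where the smallest possible is 0.1). That difference was 0.11 with a pseudocount of 1 on both genes (exact p = 0.6), 0.20 without dsNC replicate 2, and 0.47 without dsNC replicate 3, where the groups separated (exact p = 0.1). A second ultraspiracle gene, ultraspiracle/retinoid x receptor-1 (Cluster-8110.30508), was at 1.93, 2.62 and 1.36 FPKM in dsNC, against 1.12, 1.88 and 1.38 FPKM in dsFactin (log2 -0.26 ± 0.26, SE, adjusted p = 0.606, limma). Its groups overlapped, and its sign turned with quantile normalization (0.07). With both ultraspiracle genes summed, the ratio was 3.50, 3.13 and 4.77 in dsNC and 3.97, 3.85 and 3.99 in dsFactin (log2 0.07, exact permutation p = 0.7). The receptor genes were thus lower side by side, at a ratio that did not separate the groups.

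Genes listed as ecdysone response factors, by words in their best hits, were negative about as often as all genes. Those words missed the hormone receptor-like proteins and the more abundant FTZ-F1 cluster, which are given with the C4 zinc finger genes below. Leaving out ecdysone receptor and ultraspiracle, 14 ecdysone response factors were tested and 0 passed in either direction in limma. Of these, 10 were negative (71.4%, beside 71.6% of all tested genes), 3 were lower at an unadjusted p under 0.05 (21.4%, beside 14.8%) and 0 higher. In 6 dsFactin lay wholly below dsNC (42.9%, beside 21.5%), and the median was -0.33 beside -0.27 for all genes. Most of the 14 are longer than 4000 bases. Of all tested genes, 44.9% from 4000 to 6000 bases and 59.6% of 6000 bases and over lay wholly below. The part of gene length in the 42.9% was not tested. E75 (Cluster-8110.34326), a nuclear receptor of the early ecdysone response in Drosophila, was at 42.7, 40.4 and 40.2 FPKM in dsNC, against 21.2, 39.2 and 27.7 FPKM in dsFactin (adjusted p = 0.276, limma). In dsFactin replicate 2 it came within 1 FPKM of the lowest control. E78-1 (Cluster-8110.32206), a related receptor, was at 33.5 ± 3.73 and 22.7 ± 4.59 FPKM, and the E74-like factor (Cluster-8110.40114), an ETS factor of the same response, at 7.06 ± 0.841 and 4.01 ± 1.47 FPKM (dsNC before dsFactin, SD, n = 3, adjusted p = 0.172 and 0.216, limma). Nuclear receptor coactivators 2 (Cluster-8110.29554) and 6 (Cluster-8110.35646), proteins that nuclear receptors recruit in vertebrates, differed by -0.40 ± 0.18 and -0.49 ± 0.16 on the log2 scale (SE, adjusted p = 0.295 and 0.173, limma). Of 6 coactivator hits, 4 were negative and 2 positive. The positive ones, hits to coactivator 7 (Cluster-8110.33449 and Cluster-8110.36282), differed by 0.21 ± 0.16 and 0.39 ± 0.20 (SE, adjusted p = 0.495 and 0.352, limma). An E78C hit (Cluster-8110.35654), also positive, differed by 0.14 ± 0.18 (SE, adjusted p = 0.699, limma). An FTZ-F1 hit (Cluster-8110.25102), the factor of the falling ecdysteroid phase in Drosophila, was at 1.33 ± 0.270 and 1.57 ± 0.725 FPKM (SD, n = 3), and its log2 difference of 0.11 turned to -0.10 without dsFactin replicate 1.

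A wider view came from the 24 further tested genes with a C4 zinc finger, a list chosen after the files were seen. They include 4 of the response factors just counted. Of the 24, 0 passed in limma, 2 were higher at an unadjusted p under 0.05 (8.33%, beside 4.53% of all tested genes) and 7 lower (29.2%, beside 14.8%). A negative difference was found in 20 (83.3%, beside 71.6%), and the median was -0.41. Hormone receptor-like protein 4-2 (Cluster-8110.29425) was at 14.6, 11.8 and 7.57 FPKM in dsNC, against 2.05, 8.73 and 1.28 FPKM in dsFactin (adjusted p = 0.210, limma), a second gene that was near control in dsFactin replicate 2. Without that library its log2 difference was -2.18 (adjusted p = 0.0416, limma). Others shared that shape at low levels. Hormone receptor-like protein 46-1 (Cluster-8110.26094), a relative of the Drosophila early-late receptor HR46, stood at 3.63, 3.31 and 2.54 FPKM in dsNC, and in dsFactin replicate 2 at 3.37 FPKM but at 0.290 and 0.360 FPKM in replicates 1 and 3. For 46-2 (Cluster-8110.37652) the dsFactin values were 0.58, 3.32 and 0.50 FPKM, for 4-1 (Cluster-8110.24836) 0.570, 2.90 and 0.530 FPKM, and for E78C-like (Cluster-8110.45183) 0.22, 2.0 and 0.26 FPKM. In all 4 dsFactin replicate 2 was at or above the lowest dsNC library and the other dsFactin libraries were below it, and replicate 2 is also where the ecdysone receptor and ultraspiracle were the highest of their group. Hormone receptor-like protein 39 (Cluster-8110.32764) differed by -0.75 ± 0.21 and hormone receptor-like protein 38 (Cluster-8110.25887) by -0.92 ± 0.26 on the log2 scale (SE, adjusted p = 0.134 and 0.141, limma). The more abundant FTZ-F1 cluster (Cluster-8110.34116) was at 19.9 ± 1.80 and 17.1 ± 8.02 FPKM (SD, n = 3). Among the 4 with a positive difference, hepatocyte nuclear factor 4 (Cluster-8110.34872), a receptor tied to fat metabolism in Drosophila, was at 50.2, 47.6 and 52.6 FPKM in dsNC, against 88.3, 67.2 and 78.9 FPKM in dsFactin (log2 0.62 ± 0.14, adjusted p = 0.0921, limma). Apart from E78C-like, the clusters named in this account of C4 zinc finger genes were chosen after their values were seen.

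The ecdysteroid synthesis and turnover list had a median of 0.26, beside -0.27 for all genes. Of its 28 tested genes 0 passed in limma, 7 were higher at an unadjusted p under 0.05 (25.0%, beside 4.53% of all tested genes) and 3 lower (10.7%, beside 14.8%), and 15 were positive and 13 negative. Cytochrome P450 18a1, the enzyme that inactivates ecdysteroids in Drosophila, was the best hit of 12 clusters, of which 9 were positive, 5 higher and 1 lower at an unadjusted p under 0.05, with a median of 0.53. One of the higher ones (Cluster-8110.32047) was at 17.8, 16.7 and 17.0 FPKM in dsNC, against 26.1, 25.3 and 27.8 FPKM in dsFactin (adjusted p = 0.0784, limma), and the lower one (Cluster-8110.40865) at 2.28 ± 1.05 and 0.323 ± 0.0751 FPKM (SD, n = 3, adjusted p = 0.0999, limma). CYP307A1 (Cluster-8110.36701), an early step of ecdysteroid synthesis in insects, was named after its values were seen. It was at 12.6, 9.81 and 9.96 FPKM in dsNC, against 8.59, 9.02 and 0.380 FPKM in dsFactin, so replicate 3 alone stood far below. CYP307A1 is 1 of 7 tested clusters of ecdysteroid synthesis P450 enzymes, of which 4 were positive and 3 negative, with a median of 0.26. Of the 7, 0 passed in limma, 1 was higher at an unadjusted p under 0.05 and 0 lower. CYP307A1 alone lay wholly below dsNC, and 1 other cluster lay wholly above. Of 7 NPC2 hits, sterol-binding proteins, 6 were negative, with a median of -0.66. The positive one was Cluster-8110.35485 at 424 ± 17.3 and 608 ± 34.3 FPKM, and the negative ones included Cluster-8110.43319 at 18.4 ± 1.82 and 11.0 ± 0.420 FPKM (SD, n = 3, adjusted p = 0.0896 and 0.0784, limma). Ecdysis peptides and their receptors, 8 tested, had 0 past the threshold in limma, 1 with an unadjusted p under 0.05, and 7 negative (87.5%, beside 71.6% of all tested genes).

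On the juvenile hormone side, the table held 12 clusters named as juvenile hormone acid methyltransferase, 11 of them tested. Of these, 0 passed in limma and only methyltransferase-3 (Cluster-8110.40186) had an unadjusted p under 0.05 or groups that did not overlap. That is 9.09% wholly higher, beside 5.98% of all tested genes, and 0 wholly lower. A second cluster with the same methyltransferase-3 hit (Cluster-8110.42663) was at 10.1, 9.80 and 20.6 FPKM in dsNC, against 8.69, 26.2 and 7.85 FPKM in dsFactin, with no separation of groups. Near-identical clusters may share reads, so the split between them is uncertain. Methyltransferase-2 (Cluster-8110.30875) was level at 22.8 ± 2.32 and 23.5 ± 1.78 FPKM, a log2 difference of 0.04 ± 0.13 (SE), and methyltransferase-6 (Cluster-8110.29140) at 17.8 ± 1.96 and 21.2 ± 5.40 FPKM (SD, n = 3). Methyltransferase-1 (Cluster-8110.40101) was at 20.2, 13.9 and 0.850 FPKM in dsFactin and 7.78 to 15.0 FPKM in dsNC. Cluster-8110.40186 alone made up 31.6 to 35.0% of the family's summed FPKM in dsNC and 37.6 to 48.4% in dsFactin. That share leaves out the second cluster with the same hit, Cluster-8110.42663, whose groups overlapped. The family sum overlapped at 112 to 153 and 140 to 179 FPKM (exact permutation p = 0.3).

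The juvenile hormone and sesquiterpenoid list, 27 tested genes, had 0 past the threshold in limma, 6 higher at an unadjusted p under 0.05 (22.2%, beside 4.53% of all tested genes) and 1 lower, and a median of -0.05. Farnesol dehydrogenases, which oxidise farnesol on the insect route to juvenile hormone, made up most of these: 5 of 7 clusters lay wholly above dsNC (71.4%, beside 5.98% of all tested genes), and 0 of the 7 passed in limma. Cluster-8110.26748 was at 40.1, 57.3 and 45.8 FPKM in dsNC, against 121, 174 and 350 FPKM in dsFactin (log2 2.02 ± 0.38, SE, adjusted p = 0.0784, limma). The most abundant, Cluster-8110.31460, was at 128 ± 14.6 FPKM in dsNC, against 388, 270 and 1094 FPKM in dsFactin (SD, n = 3, adjusted p = 0.119, limma), with replicate 3 the highest in both. Cluster-8110.32840 lay on the other side, at 31.0 ± 5.67 and 16.5 ± 1.85 FPKM (SD, n = 3, adjusted p = 0.0878, limma). In the fit restricted to genes with a mean of at least 5 FPKM, Cluster-8110.26748 passed as higher (adjusted p = 0.0473) and Cluster-8110.32840 as lower (adjusted p = 0.0484).

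**Figure D3:**
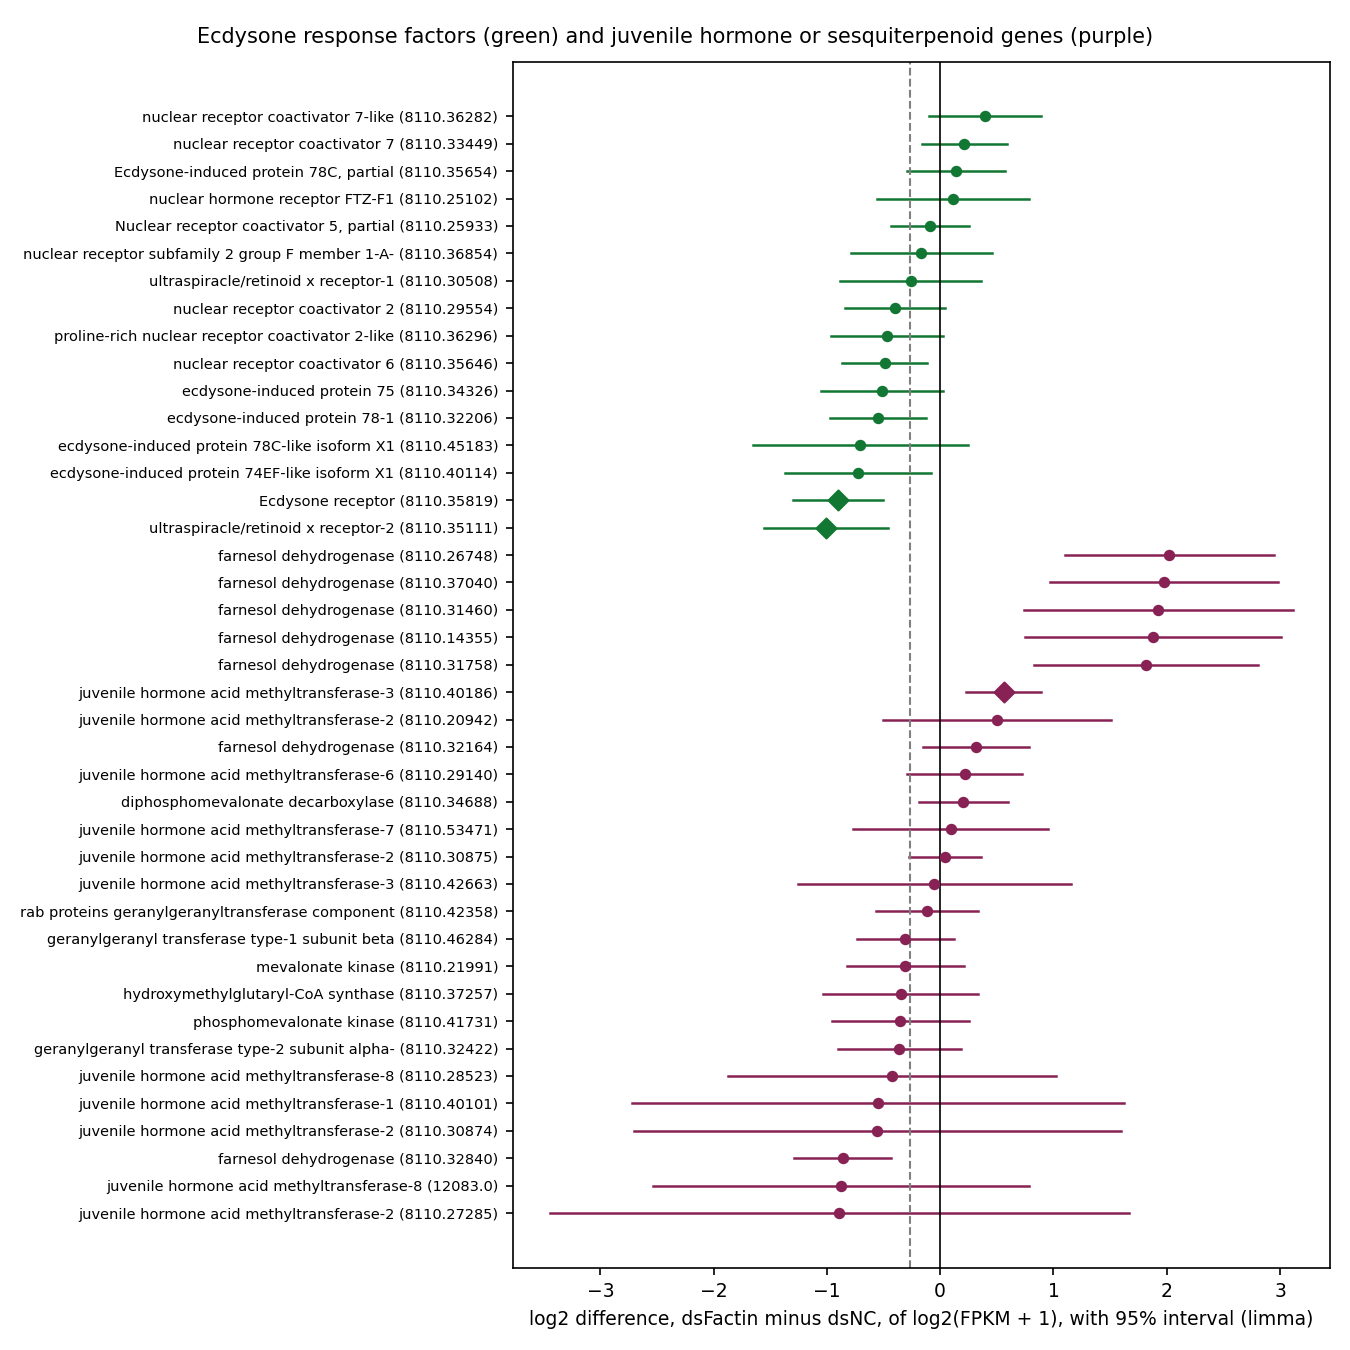
Log2 difference, dsFactin minus dsNC, of log2(FPKM + 1) with its 95% interval from limma, for tested ecdysone response factors (green) and juvenile hormone or sesquiterpenoid genes (purple) with a mean of at least 1 FPKM; diamonds mark the 3 genes followed here and the dashed line the median of all genes, -0.27. Ecdysone receptor and ultraspiracle are the lowest 2 of the green genes, and 5 farnesol dehydrogenases lie near 2.

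Cuticle proteins are the structural product of a moult, and 148 genes carried that name in their best hit. Of 139 tested, 0 rose and 13 fell in limma, as against 0.419% called lower over all genes, and the list median was -1.69. In 49 of them dsFactin lay wholly below dsNC (35.3%, beside 21.5% of all tested genes) and in 1 wholly above. The count lower was 19 without dsFactin replicate 2, where 1 gene was also called higher and the median was -0.97, and 7 without dsNC replicate 3. Leaving out dsNC replicate 2 gave 4, dsNC replicate 1 gave 9, and dsFactin replicate 1 gave 8. Without dsFactin replicate 3 the count lower was 14, with 1 gene called higher. Lower calls over all 53182 tested genes moved as well, from 223 to 1004 without dsFactin replicate 2 and 73 without dsNC replicate 3. They were 31, 42, 50 and 76 without dsNC replicates 2 and 1 and dsFactin replicates 1 and 3. Many of the 148 best hits are named adult-specific rigid cuticular protein, and the stage of the animals is not in the labels. An adult-specific rigid cuticular protein 15.7-like gene (Cluster-8110.32557) fell from 153, 185 and 177 FPKM to a listing at 0 in all dsFactin libraries (adjusted p = 4.5e-05, limma). A cuticle protein 10.9-like gene (Cluster-8110.28959) fell from 46.5 ± 6.79 to 0.127 ± 0.219 FPKM (SD, n = 3, adjusted p = 0.000559, limma). Another 10.9-like gene (Cluster-8110.35313) was at 498 ± 80.4 and 1104 ± 316 FPKM (SD, n = 3, adjusted p = 0.101, limma). Among chitin enzymes, a chitin deacetylase 1-like gene (Cluster-8110.35395) fell from 333 ± 19.5 to 142 ± 15.3 FPKM (SD, n = 3, adjusted p = 0.0296, limma), the only one of 30 tested to pass. That call was lost without any 1 of the dsNC libraries or dsFactin replicate 1 (adjusted p from 0.0927 to 0.152), with median-ratio rescaling (adjusted p = 0.103) and with no trend (adjusted p = 0.0633). A shorter gene of the same name (Cluster-8110.25825) was at 54.7 ± 6.98 and 197 ± 71.7 FPKM (SD, n = 3, adjusted p = 0.0610, limma). The yolk list took every best hit that names vitellogenin. It thus mixes yolk precursors with vitellogenin receptor clusters, which were not counted apart. Of its 35 tested genes, 1 rose and 1 fell in limma, beside 0.0771% called higher and 0.419% lower over all tested genes. A positive difference was found in 25 and a negative one in 10 (28.6%, beside 71.6% of all tested genes), and the median was 1.27. Genes of this list were already abundant in dsNC, at a summed 9867 to 14069 FPKM. Vitellogenin-1 (Cluster-8110.3985), a yolk precursor, rose from 0.263 ± 0.0737 to 514 ± 291 FPKM (SD, n = 3, adjusted p = 0.00209, limma).

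**Figure D4:**
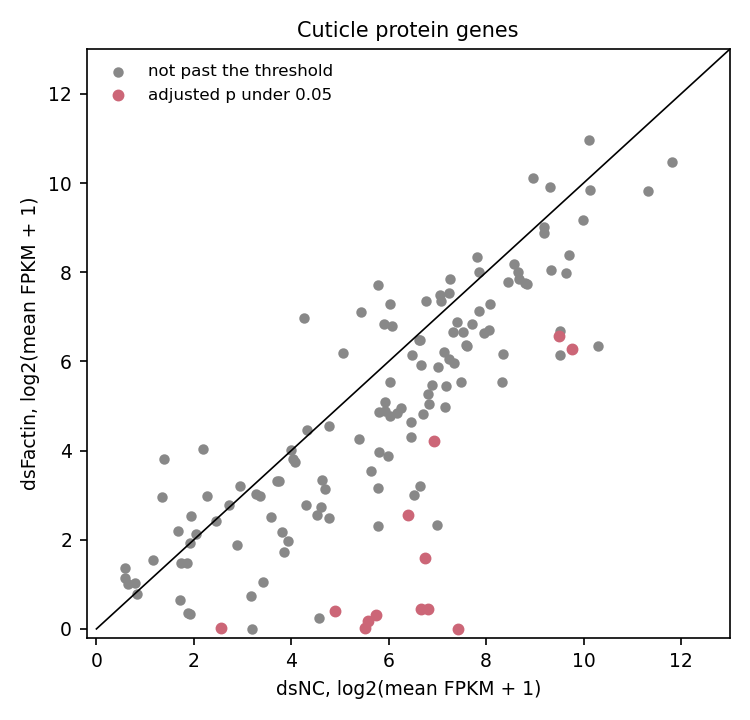
Each of the 139 tested cuticle protein genes by its mean level in dsNC (horizontal) and dsFactin (vertical), both as log2(mean FPKM + 1), with the line of equal levels; red points are the 13 genes that passed in limma. All 13 lie below the line.

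Summed over all 148 genes, cuticle protein FPKM was 32563, 26988 and 28641 in dsNC and 15937, 6906 and 27059 in dsFactin. The dsFactin replicate 3 thus lay within the dsNC range and replicate 2 far below it (log2 difference -1.03, exact permutation p = 0.2). The difference was -0.50 without dsFactin replicate 2. With libraries scaled to an equal sum (-1.02) or without the 5 most abundant genes (-1.21), the groups did not overlap (exact p = 0.1 each). The top 5 held 27.1 to 32.3% of this sum in dsNC and 36.2 to 40.6% in dsFactin. Without them the dsFactin sums were 9463, 4211 and 17264 FPKM, with the replicates in the same order. An adult-specific rigid cuticular protein 12.6 gene (Cluster-8110.35565) was at 4447, 3550 and 2775 FPKM in dsNC, against 1086, 597 and 2541 FPKM in dsFactin. An adult-specific rigid 11.9-like gene (Cluster-8110.35804) was at 705.9, 327 and 1675 FPKM in dsFactin against 2270.1 to 2992 FPKM in dsNC. An adult-specific rigid 15.7-like gene (Cluster-8110.34439) was at 746, 26.2 and 1967 FPKM in dsFactin and 853 to 1343 FPKM in dsNC. A 10.9-like gene (Cluster-8110.35419) was at 2627, 1004 and 2350 FPKM in dsFactin and 916 to 1464 FPKM in dsNC. Giving every tested cuticle gene equal weight, the mean of log2(FPKM + 1) was 5.90, 5.66 and 5.72 in dsNC and 4.47, 3.39 and 4.47 in dsFactin, which did not overlap (exact permutation p = 0.1, the smallest possible).

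Over the 6 libraries no correlation with the cuticle sum passed the threshold. Pearson's r was 0.38 for the ecdysone receptor (exact permutation p = 0.519, adjusted over the 3 genes p = 0.519) and Spearman's rho 0.26 (exact p = 0.658, adjusted p = 0.658). For ultraspiracle r was 0.42 (exact permutation p = 0.468, adjusted p = 0.519) and rho 0.31 (exact p = 0.564, adjusted p = 0.658). Methyltransferase-3 ran against the sum, with r = -0.62 (exact permutation p = 0.194, adjusted p = 0.519) and rho = -0.54 (exact p = 0.297, adjusted p = 0.658). Without the 2 libraries farthest from the median sum, dsFactin replicates 1 and 2, r was 0.32, 0.32 and -0.28 in the same order. Without dsFactin replicate 3, r was 0.73 for the ecdysone receptor and 0.76 for ultraspiracle (exact permutation p = 0.108 and 0.15), and with median-ratio rescaling 0.15 and 0.17. For methyltransferase-3 it was -0.89 without dsFactin replicate 3, -0.40 without dsFactin replicate 2 and -0.32 with median-ratio rescaling. The groups lie apart on the axis of each of the 3 genes, so these values carry the group difference, and a relation within a group cannot be tested on 3 libraries.

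Within dsFactin the order of the receptor genes was opposite to that of the cuticle sum. Replicate 2, with the lowest sum, had the highest ecdysone receptor and ultraspiracle, and replicate 3, with the highest sum, had the lowest of both. Within dsNC the ecdysone receptor was likewise highest in replicate 2, where the sum was lowest, and lowest in replicate 1, where it was highest. Ultraspiracle did not follow that order in dsNC, being lowest in replicate 3, where the sum was in the middle. Methyltransferase-3 was lowest in dsNC replicate 2 and highest in replicate 3. Against the equally weighted cuticle mean, r over 6 libraries was 0.74 for the ecdysone receptor, 0.76 for ultraspiracle and -0.88 for methyltransferase-3 (exact permutation p = 0.1, 0.0833 and 0.0361, each 0.1 when adjusted over the 3 genes).

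**Figure D5:**
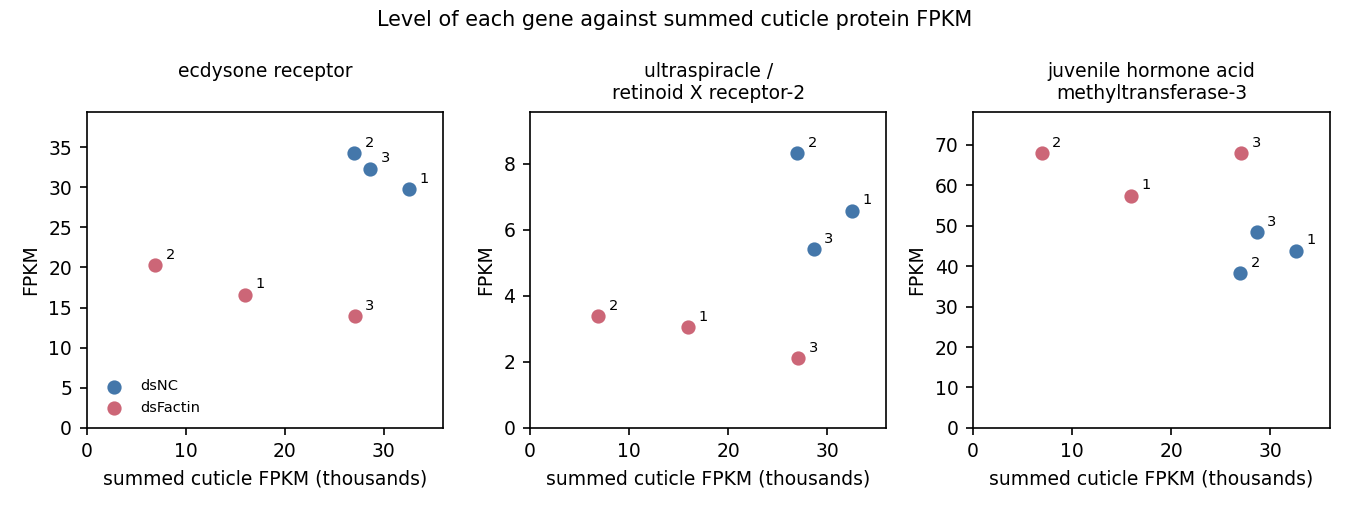
FPKM of each of the 3 genes (vertical, from 0) against summed cuticle protein FPKM (horizontal, in units of 1000), 1 point per library numbered by replicate, blue for dsNC and red for dsFactin. In dsFactin the ecdysone receptor and ultraspiracle descend from replicate 2 to 1 to 3 as the sum grows from 6906 to 27059.

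Patterns across libraries much like those of the 3 genes were common. Among 7484 other named genes with a mean of at least 5 FPKM, 320 had a Pearson r over 0.95 with the ecdysone receptor on the log2(FPKM + 1) scale and 101 with methyltransferase-3. For ultraspiracle it was 363 of 7485. With 6 libraries in 2 groups, these values describe likeness and no more. Closest to the ecdysone receptor were a FAM43A-like gene (Cluster-8110.38993, r = 0.999), a transcriptional enhancer factor TEF-1-like gene (Cluster-8110.35143, r = 0.998), which belongs to the TEAD family of Hippo pathway factors, and a non-specific lipid-transfer protein-like gene (Cluster-8110.27133, r = 0.996). The TEF-1-like gene was at 5.97, 6.66 and 6.43 FPKM in dsNC, against 3.73, 4.50 and 3.07 FPKM in dsFactin (adjusted p = 0.140, limma). Closest to ultraspiracle were a bromodomain protein BAZ2B-like gene (Cluster-8110.33550, r = 0.999), Mo25 (Cluster-8110.40852, r = 0.998), a kinase scaffold, and a titin-like muscle gene (Cluster-8110.36325, r = 0.998). Closest to methyltransferase-3 were PURH (Cluster-8110.35263, r = 0.997), an enzyme of purine synthesis, a natterin-4-like gene (Cluster-8110.33812, r = 0.996) and a MACPF domain protein (Cluster-8110.33495, r = 0.995).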

How the data were processed

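The authors deposited 1 table of FPKM values (2 decimals) for 75542 assembled genes in 6 libraries. Aligner, assembler and counter: not given in the sources used here. A mouse build, mm10, is named in the submitters' processing notes, and the table holds no mouse coordinates. Gene names are the first entry of the best protein hit, present for 24833 genes; hit scores were deposited but no score was used. Groups came from sample titles. Testing covered the 53182 genes that reached 0.5 FPKM in 3 or more libraries, with limma 3.58.1 in R 4.3.3 on log2(FPKM + 1), two-sided, with intensity trend and Benjamini-Hochberg adjustment at 0.05; fold changes of low genes are understated. The test was checked on simulated data. Depth was recovered from steps between low FPKM values of genes of 500 to 800 bases: 99.4 to 99.6% came within 0.1 of a whole fragment. Permutation tests were exact (Python 3.11.15, scipy 1.17.1) and could not give p below 0.1 for 3 against 3. The 3 genes and the 7 word lists were chosen with earlier results of these data known. The naming rule took the 3 genes, the 2 hormone lists at a mean of at least 1 FPKM, up to 2 members per direction of the other lists, the 5 most abundant cuticle proteins and the 3 most alike genes, 75 in all, not all of which are named. A further 12 were picked with their values in view. Alternatives were other pseudocounts, filters, scalings, weights, the replicate block and each library left out; leaving out Drosophila hits, adding Swiss-Prot words and summing both ultraspiracle genes were added after seeing the data.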

Additional observations from a re-analysis of the deposited data

How the results depend on the processing

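The ecdysone receptor and ultraspiracle were lower and methyltransferase-3 higher in dsFactin under every alternative run. Log2 differences ranged from -1.03 to -0.59 for the ecdysone receptor (17 settings), from -1.25 to -0.73 for ultraspiracle (16, since its mean is under 5 FPKM) and from 0.47 to 0.88 for methyltransferase-3 (17). The ecdysone receptor passed at a mean of at least 5 FPKM (-0.90), with array weights (-0.90) and without dsFactin replicate 2. With 1 library left out the ranges were -1.03 to -0.77, -1.14 to -0.87 and 0.47 to 0.64. The 264 calls over all genes became 114 at pseudocount 0.01, 117 without a filter, 781 at a mean of at least 5 FPKM, 115 with median-ratio rescaling, 174 with no trend, 702 with array weights and 33 to 1297 with 1 library left out. The share of higher calls was 15.5%. It was 31.5% at a mean of at least 5 FPKM, 27.6% with quantile normalization, 5.88% with the replicate block, 5.20 to 6.67% with 1 dsNC library left out and 13.8 to 27.6% with 1 dsFactin library left out. Calls over the 7 lists, 16 in all, became 7 at pseudocount 0.01, 37 at a mean of at least 5 FPKM, 10 with median-ratio rescaling, 31 with array weights and 5 to 37 with 1 library left out.

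The labels do not say whether libraries of the same replicate number were handled together. Deviations of same-numbered libraries correlated at 0.10, -0.11 and -0.15, and only number 1 correlated best with its own number. With 3 libraries per group these values cannot settle whether the libraries are paired. With the replicate block 17 genes passed over all genes, 4 over the lists and 3 cuticle proteins, and the 3 genes had adjusted p of 0.216, 0.216 and 0.224.

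The correlation of methyltransferase-3 with the cuticle sum passed at an unadjusted exact p with the equally weighted mean (-0.88) and without dsFactin replicate 3, and spanned -0.89 to -0.40 with 1 library left out. With 1 library left out, the receptor correlations spanned 0.30 to 0.73 (ecdysone receptor) and 0.31 to 0.76 (ultraspiracle), the cuticle sum -1.48 to -0.50 and the subunit ratio 0.20 to 0.47, and none changed sign. Signs of genes near 0 turned: Cluster-8110.34116 (0.024) and Cluster-8110.42663 (0.25) and Cluster-8110.37652 (0.14) with median-ratio rescaling, and Cluster-8110.30508 (0.068), Cluster-8110.37652 (0.29) and Cluster-8110.42663 (0.14) with quantile normalization. With 1 library left out, values spanned -0.10 to 0.29 for Cluster-8110.25102, -0.57 to 0.27 for Cluster-8110.42663, -1.22 to 0.54 for Cluster-8110.40101, -0.012 to 0.12 for Cluster-8110.30875, -0.53 to 0.24 for Cluster-8110.37652 and -2.95 to 0.14 for Cluster-8110.34439. Causes of these changes were not tested.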
